A study of Rattus norvegicus with 6 samples.

Results

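Voltage-gated and potassium channel genes were examined in GH4C1 cells. These are an established rat tumour line of pituitary somatolactotrophs, the cells that secrete growth hormone together with prolactin. Members were all genes whose array annotation gave a single symbol of the calcium (Cacn), sodium (Scn followed by a digit), hyperpolarisation-activated (Hcn) or potassium (Kcn) channel families. The rule found 181 probe sets for 114 genes, out of 14217 genes with a single symbol, and each gene was read through its probe set with the highest mean log2 signal over the 6 arrays. Of the 6 samples, 3 had been transduced with a lentiviral vector carrying POU1F1(R271W) and an EGFP reporter behind an IRES, and 3 were controls, which per the design text received EGFP without the factor. Both vectors used the PGK promoter, the multiplicity of infection was 5, and cells were exposed for 16 h and harvested 4 days later. POU1F1 is the POU-domain factor that drives hormone genes of this lineage, and the title describes the R271W mutant as dominant negative. The cells keep their own Pou1f1, and whether its rat probe sets read the transgene is not known. Each sample was hybridised to 1 Affymetrix array. The labels call the replicates biological without saying that they were separate cultures, so p-values measure the spread between these samples, whose number limits the precision.

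Voltage-gated channels open when the membrane potential changes. Sodium and calcium channels carry the inward current of an action potential and potassium channels carry the outward current that ends it or holds the cell at rest. Pituitary cells of this lineage fire spontaneous action potentials with a large calcium component, and the calcium that enters drives hormone release. Among potassium channels, Kv channels respond to voltage, inward rectifiers pass current mainly near rest, two-pore channels carry background leak, and large-conductance channels respond to calcium and voltage together.

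The values are MAS5 signals, a linear brightness per probe set scaled on each array to a trimmed mean of 100. Signals of different probe sets do not rank genes by amount of RNA. Median signals of the arrays were 22.4 to 22.9 in controls and 25.5 to 26.9 in R271W cells, a difference that touches dim probe sets most. The hybridisation spikes, RNAs added to every sample, had log2 signals 0.23 higher on R271W arrays. Beta-actin signal at the 3' end over that at the 5' end was 1.81 to 1.82 in controls, and 1.86 to 2.06 in R271W cells. For GAPDH this ratio overlapped, at 0.927 to 1.04 in controls and 0.964 to 0.993 in R271W cells. The ratios of the 3' end over the middle overlapped for both genes. The part of these differences in the results was not tested. The lineage markers Gh1, Prl and Pou1f1 had mean control signals of 6443, 4332 and 2301. In R271W cells Prl fell by 0.45 on the log2 scale to 3175 (limma adjusted p = 0.00048) and Pou1f1 by 0.33 (adjusted p = 0.00486), while Gh1 had a log2 fold change of -0.03 (adjusted p = 0.853). The part of these falls in the channel values was not tested. The markers of other pituitary hormone cells (Pomc, Tbx19, Lhb, Fshb, Gnrhr, Nr5a1, Tshb and Cga) had means between 4.39 and 28.4. Of the matrix markers, Dcn fell by 1.20 on the log2 scale from a mean of 2770, with Col1a1 and Col1a2 at 12.8 and 5.63, and its part in the channel values was not tested.

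The first question was which channel genes the control cells express. A gene was called expressed when its signal was at least 50 on all 3 control arrays, since the table holds no detection calls. By this rule 15 of 114 channel genes were expressed (13.2%), against 49.3% of all genes with a single symbol. None of 19 olfactory and vomeronasal receptor genes, which serve as a background of genes foreign to the pituitary, met the limit, and their highest signal on any control array was 28.9. The gene just inside the limit was Kcnh2, whose lowest control array read 53.2, and the gene just outside was Kcna2, whose lowest read 48.6. In 74 channel genes all 3 control arrays were under 25. With limits of 25 and 100, 26 and 6 channel genes were expressed.

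Of the 15 expressed genes 5 encode calcium channel subunits: Cacna1d, the pore of an L-type channel, Cacna2d1, an extracellular subunit that carries channels to the membrane, the cytoplasmic beta subunit genes Cacnb2 and Cacnb3, and Cacng6, a gamma subunit gene. Scn3b, a sodium channel beta subunit gene, was expressed, while none of 9 sodium channel pore genes met the limit. Hcn2 encodes a pacemaker cation channel. The potassium channel genes were the Kv1 genes Kcna4 and Kcna5, the Kv4 gene Kcnd3, Kcnh2, which encodes the ERG channel, its relative Kcnh3, the two-pore genes Kcnk1 and Kcnk6, and Kcnma1, the pore of the large-conductance calcium-activated channel. None of 15 inward rectifier genes and none of 11 Kv auxiliary subunit genes met the limit. These absences rest on the limit of 50, while the receptor genes reached at most 28.9 on any control array. The lowest control arrays of Kcnj4, Kcnj14, Kcnj6 and Kcnj11, all inward rectifier genes, read 42.3, 39.4, 30.8 and 30.1. Those of Scn3a, a sodium channel pore gene, and Kcnip3, a Kv auxiliary gene, read 34.1 and 34.7. All of these met the limit of 25.

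**Figure D1:**
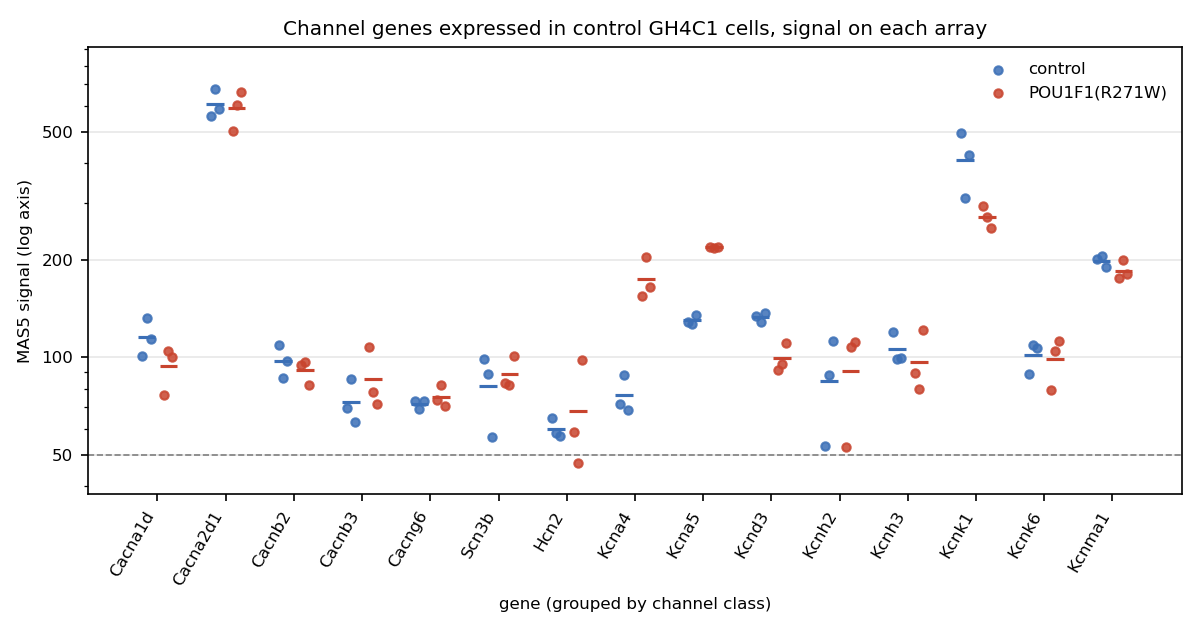
MAS5 signal (log axis) of the 15 channel genes expressed in controls, grouped by channel class. Points are single arrays, 3 control (blue) and 3 POU1F1(R271W) (red), short lines are group means, and the dashed line is the limit of 50. The groups separate for Kcna4, Kcna5, Kcnd3 and Kcnk1 and overlap for the other 11 genes.

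The comparison then asked which channel genes differ when the mutant factor is present. A total of 4 channel genes passed limma's test, and all 4 encode potassium channel pores: Kcna4 and Kcna5 rose, and Kcnk1 and Kcnd3 fell. Kcna4 and Kcna5 rose 2.29-fold and 1.68-fold, and Kcnk1 and Kcnd3 fell by 0.57 and 0.43 on the log2 scale. In bulk cultures, fewer cells with a transcript and less RNA per cell cannot be told apart. A filter on mean signal left 47 of the 114 genes for testing, so 67 dim members were not tested. The 4 calls are 8.51% of the 47, and over all genes tested 18.9% passed at an adjusted p under 0.05 (9.87% higher and 8.98% lower). Potassium channel genes made up 31 of the 47, and the 4 calls are 12.9% of these 31, also below that share. All 4 calls lay among the 15 expressed genes, where they make 26.7%, against 23.9% over all tested genes expressed in controls. The median log2 fold change was 0.00019 over the 47 channel genes and 0.06 over all 10143 genes tested.

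**Figure D2:**
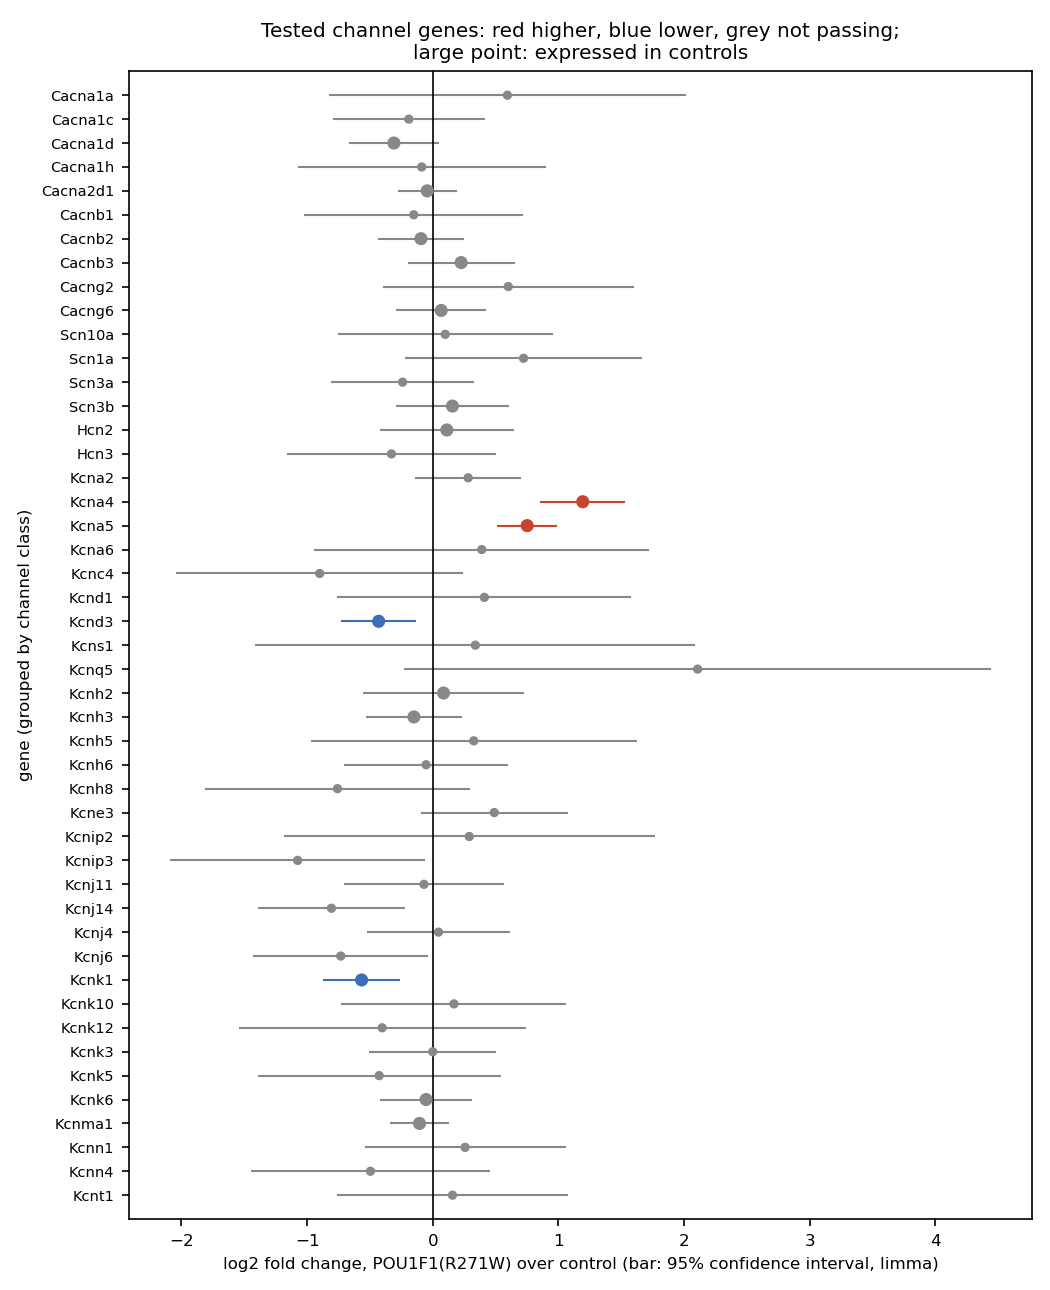
Log2 fold change of POU1F1(R271W) over control for the 47 tested channel genes, with 95% confidence intervals from limma (3 arrays per group). Genes are grouped by class, large points mark those expressed in controls, red marks genes that rose (Kcna4 and Kcna5), blue genes that fell (Kcnd3 and Kcnk1) and grey genes that did not pass.

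Kcna4 encodes a fast-inactivating Kv1 pore, which carries an A-type current. Its signals were 71.9, 88.3 and 68.7 in controls and 155, 204 and 165 in R271W cells. The lowest R271W array was far above the highest control. The means were 76.3 ± 10.5 and 175 ± 25.7 (SD, n = 3 each). The log2 fold change was 1.19 (SE 0.16, 95% confidence interval 0.86 to 1.53, limma adjusted p = 0.00022), and it passed in all 17 alternatives, with values from 1.00 to 1.30.

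Kcna5 encodes a delayed rectifier of the same Kv1 subfamily, which inactivates slowly. Its signals were 128, 127 and 135 in controls and 220.1, 218 and 219.6 in R271W cells. The R271W arrays lay close together and well above the controls. The means were 130.2 ± 4.46 and 219 ± 1.10 (n = 3 each), and the log2 fold change was 0.75 (SE 0.11, interval 0.51 to 0.99, adjusted p = 0.00049). It passed in all 17 alternatives, with values from 0.55 to 0.78.

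Of 6 Kv1 genes on the array, 4 were tested. The others were Kcna2, a delayed rectifier gene, at 57.9 ± 8.03 and 70.3 ± 8.31 (log2 0.28, adjusted p = 0.374), and Kcna6, dim at 13.7 ± 7.60 and 16.4 ± 5.55 (log2 0.39, adjusted p = 0.728). In both the arrays of the groups overlapped. Kcna1 and Kcna3 lay below the filter. No test of the Kv1 genes against the other channel genes was made.

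Because Kcna4 and Kcna5 rose, their promoters are shown, from 250 bases before to 50 bases after the start site (RefSeq, GRCr8). Kcna4 lies at chr3:114215086-114215385 on the plus strand and Kcna5 at chr4:161043760-161044059 on the minus strand. Capitals mark the letters ATGCAAA, the start of the octamer that POU factors are known to bind, which was added to the search after the sequences were seen.
Kcna4: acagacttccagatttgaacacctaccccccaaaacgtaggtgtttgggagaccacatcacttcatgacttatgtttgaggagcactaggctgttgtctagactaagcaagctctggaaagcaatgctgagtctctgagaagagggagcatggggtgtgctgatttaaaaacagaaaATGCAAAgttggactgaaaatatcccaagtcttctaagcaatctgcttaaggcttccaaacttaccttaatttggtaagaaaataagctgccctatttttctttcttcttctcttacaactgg
Kcna5: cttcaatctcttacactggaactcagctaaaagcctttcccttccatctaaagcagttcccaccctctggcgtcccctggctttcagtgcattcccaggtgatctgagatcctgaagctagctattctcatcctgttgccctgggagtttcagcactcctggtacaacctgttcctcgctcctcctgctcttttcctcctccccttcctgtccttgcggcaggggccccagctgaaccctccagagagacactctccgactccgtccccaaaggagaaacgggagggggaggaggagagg

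The promoters were searched on both strands for TATNCAT, the core of the known POU1F1 site, for the cAMP response element TGACGTCA and for the TATA box TATAAA. None of these 3 was in the Kcna4 or Kcna5 window. TATNCAT was in 9.88% of 33469 promoters of the same length and in 4 of 88 promoters of channel genes, those of Cacng2, Kcnj1, Kcnj15 and Scn9a. No expressed channel gene with a promoter in the table held it. TGACGTCA and TATAAA were in 1.83% and 14.2% of all promoters. ATGCAAA was in 4.68% of all promoters and in 2 of 88 promoters of channel genes (2.27%). In the Kcna4 window it began 73 bases before the start site. The base after it there is g, where the octamer has t, so the full octamer was not present at that place. The GC content was 41.7% for Kcna4 and 56.3% for Kcna5, against a median of 62.0% over the promoters of channel genes and 51.7% over all. These windows do not cover distal elements, and the arrays did not measure binding.

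Kcnk1 encodes a two-pore background channel of the TWIK type. Its signals were 494, 311 and 424 in controls and 294, 272 and 251 in R271W cells. The controls were widely spread, and the lowest control lay just above the highest R271W array. The means were 410 ± 92.2 and 272 ± 21.4 (n = 3 each), and the log2 fold change was -0.57 (SE 0.14, interval -0.87 to -0.26, adjusted p = 0.0151). The call ended without control replicate 1 (log2 -0.42, adjusted p = 0.0737), without control replicate 3 (adjusted p = 0.0608) and without the intensity trend in eBayes (0.138).

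Kcnk6 encodes a relative of Kcnk1, and its chosen probe set read 102 ± 11.2 and 98.7 ± 17.4 (log2 -0.05, interval -0.42 to 0.31, adjusted p = 0.874). Its other probe set read 55.7, 50.6 and 61.9 in controls and 36.9, 41.2 and 28.1 in R271W cells. Those arrays did not overlap, and the log2 fold change of -0.68 had an adjusted p of 0.0751. Of 6 tested two-pore genes 1 passed (16.7%), against 18.9% of all tested genes. Kcnk3, an acid-sensitive leak channel gene, was at 50.2 ± 5.14 and 50.9 ± 12.4.

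Kcnd3 encodes a Kv4 pore, another source of A-type current. Its signals were 134, 128 and 137 in controls and 91.7, 95.7 and 110.4 in R271W cells. The groups did not overlap on this probe set. The means were 133 ± 4.55 and 99.3 ± 9.87, with a log2 fold change of -0.43 (SE 0.14, interval -0.73 to -0.13) and an adjusted p of 0.0492, close to the threshold. The call ended without any one of control replicates 1, 2 and 3 (adjusted p = 0.118, 0.0934 and 0.133) or R271W replicates 1 and 2 (0.126 each). It also ended without the filter (0.0673), without the intensity trend (0.0819) and with a replicate block (0.0753).

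The other probe sets of Kcnd3 went the opposite way. One read 83.9, 82.4 and 68.6 in controls and 86.5, 105.8 and 85.4 in R271W cells, with every R271W array above every control (log2 0.24, adjusted p = 0.377). The dimmest read 11.6 ± 9.11 and 22.8 ± 11.5 (log2 1.31, adjusted p = 0.300) with overlap. The dimmest lies within the range of the receptor background, whose highest control signal was 28.9. The mean over the gene's 2 brighter probe sets gave a log2 value of -0.10 (adjusted p = 0.644), a setting added after the data were seen, and the mean over all 3 gave 0.37 (adjusted p = 0.421). The call was thus made on the chosen probe set and not on either mean. Another gene with readings of both signs was Kcna2, whose dim second probe set went from 23.8 ± 2.85 to 9.53 ± 8.13 (log2 -1.78, adjusted p = 0.113). Over all channel genes 18 other probe sets were tested, for 14 genes, and limma called 0 of them, with 2 at an unadjusted p under 0.05, against 15.8% called over all probe sets tested.

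**Figure D3:**
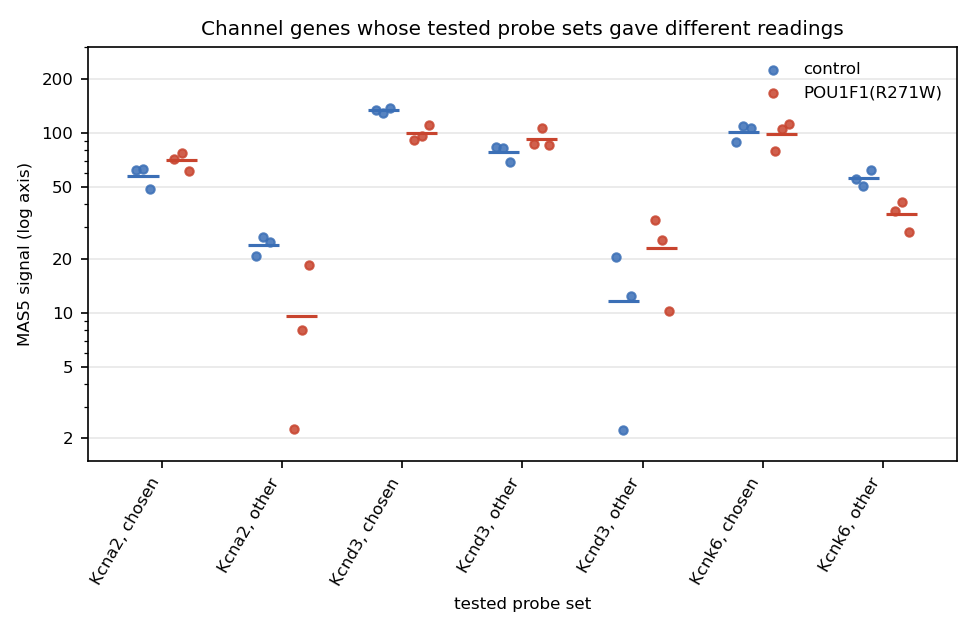
MAS5 signal (log axis) on each array for all tested probe sets of Kcna2, Kcnd3 and Kcnk6, the chosen one of each gene first. Points are single arrays (control blue, R271W red) and lines are means. For Kcnd3 the chosen probe set is lower in R271W cells and the others have higher R271W means.

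Among calcium channel genes, 0 of 10 tested members passed limma's test, and 0 had an unadjusted p under 0.05. Over all 10143 tested genes 18.9% passed, and 3391 had an unadjusted p under 0.05. Cacna1d had signals of 101, 133 and 114 in controls and 76.7, 104.9 and 100.2 in R271W cells. Those groups overlapped, and the log2 difference was -0.31 (interval -0.67 to 0.05, adjusted p = 0.246). Cacna1c, the other L-type pore tested, read 47.4 ± 6.23 and 43.1 ± 14.6. Cacna2d1 was at 607 ± 62.1 and 591 ± 81.9, and its interval of -0.28 to 0.19 on the log2 scale is among the narrowest here. Cacnb2 and Cacnb3 had log2 fold changes of -0.09 (interval -0.43 to 0.25) and 0.23 (-0.20 to 0.65), and Cacng6 one of 0.07 (-0.29 to 0.43), which is below 0 under quantile normalization (-0.04), median centring (-0.13) and 75th percentile centring (-0.02). A missed threshold does not show that these levels were equal.

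Among sodium channel genes 0 of 4 tested members passed, with 0 at an unadjusted p under 0.05. Over all 10143 tested genes these were 18.9% and 3391 genes. Scn3b was at 81.3 ± 21.9 in controls and 88.7 ± 10.7 in R271W cells (log2 0.16, adjusted p = 0.670). Scn3a, a pore gene below the limit of 50 on 2 of the control arrays at a mean of 42.0 ± 8.49, read 35.3 ± 4.98 in R271W cells. Hcn2 read 64.7, 58.4 and 56.9 in controls and 58.8, 47.2 and 98.1 in R271W cells. R271W replicate 3 was the highest of these and the groups overlapped (log2 0.11, adjusted p = 0.811).

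Kcnma1 had signals of 201, 207 and 190.5 in controls and 176, 199.7 and 181 in R271W cells. The groups overlapped, and the log2 fold change was -0.11 (interval -0.34 to 0.13, adjusted p = 0.576). Kcnh2 ranged from 53.2 to 112 in controls and from 52.8 to 111 in R271W cells, so the spread within each group was far larger than the log2 difference of 0.09 (interval -0.56 to 0.73). Kcnh3 was at 106 ± 12.1 and 97.0 ± 21.6 (log2 -0.15, adjusted p = 0.627).

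Of the 8 tested channel genes whose groups did not overlap (over all tested genes, 37.7% did not), 4 did not pass. Kcnj14, an inward rectifier gene, read 46.9, 39.4 and 53.4 in controls and 26.6, 30.2 and 23.0 in R271W cells. Its log2 fold change of -0.81 had a limma adjusted p of 0.0614. This became 0.0221, 0.0175 and 0.0382 under quantile normalization, median centring and 75th percentile centring. When only probe sets above the receptor background were fitted, it was 0.033. Kcnj14 passed in only these 4 of 16 alternatives. It passed in 0 of 6 fits that left out 1 array, and without the filter its adjusted p was 0.125. Kcnip3, which encodes a calcium-binding partner of Kv4 channels, read 36.0, 34.7 and 42.0 against 7.50, 32.8 and 22.8 (log2 -1.08, adjusted p = 0.146). R271W replicate 1 was far below the other R271W arrays. Kcnj6, a G protein-gated inward rectifier gene, had a log2 fold change of -0.73 (adjusted p = 0.148) on its chosen probe set. Its 3 other probe sets, with control means of 8.63 to 20.6, gave -0.10, 0.19 and 1.73 with overlap, and the mean over all its probe sets was 0.27. In addition, Kcne3, a Kv auxiliary subunit gene, had a log2 fold change of 0.49 (adjusted p = 0.257). Kcnj14, Kcnj6 and Kcne3 were singled out after their values were seen.

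Below the filter, 6 genes also had groups without overlap, which makes 14 of all 114 channel genes, against 29.9% of all genes with a single symbol. Kcnab2, a Kv1 beta subunit gene, read 18.1, 15.4 and 10.9 in controls and 2.79, 2.29 and 2.01 in R271W cells. These signals lie within the range of the receptor background, and 3 other probe sets of Kcnab2, with control means of 1.29 to 6.66, overlapped. Kcnh7 (means 8.07 and 2.13), Kcnj15 (10.4 and 3.60) and Scn2b (4.93 and 2.05) were lower in R271W cells, and Cacng3 (1.09 and 3.56) and Kcnc1 (1.99 and 3.55) higher, all at signals where no gene is called expressed. With no filter limma gave an adjusted p of 0.104 for Kcnab2, 0.251 for Kcnh7, 0.405 for Kcnj15, 0.596 for Scn2b and 0.490 for Cacng3. Kcnc1 was named after its values were seen.

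**Figure D4:**
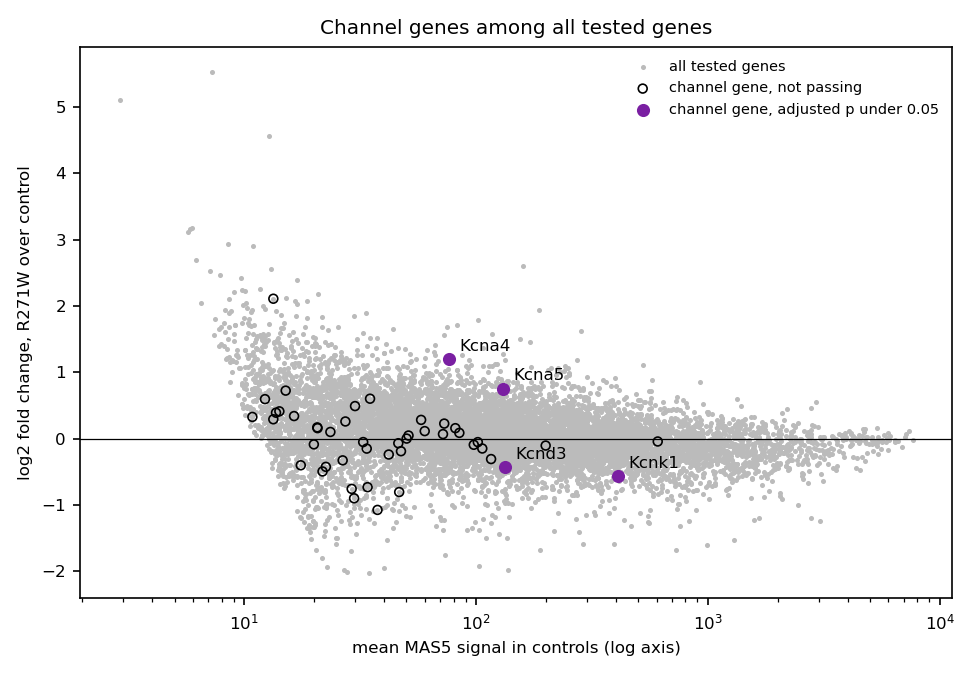
Log2 fold change of R271W over control against the mean control signal (log axis) for all 10143 tested genes (grey) and the 47 tested channel genes (circles). The 4 that passed are filled and named, and most other channel genes lie at control signals under 100, where the scatter of all genes is wide.

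Other genes that set membrane excitability were read from a list of ion pumps, exchangers, other channels and channel partners. Of 134 such genes on the array 88 were tested, and 10 rose and 8 fell, or 20.5% against 18.9% of all tested genes. With median centring 5 rose and 11 fell. Subunits of the sodium-potassium pump, which restores the ion gradients that channels run down, differed in both directions. Atp1b1 read 1428, 1407 and 1334 in controls and 1105, 934 and 1041 in R271W cells, a fall of 0.44 on the log2 scale (adjusted p = 0.00185), and Atp1b3 fell by 0.56 (adjusted p = 0.000228). Atp1b2 rose from 61.6 ± 12.1 to 112 ± 31.1 (log2 0.84, adjusted p = 0.0179), and Fxyd6, a pump modulator gene, from 32.9 ± 1.59 to 62.7 ± 8.73 (log2 0.92, adjusted p = 0.0133). The call of Fxyd6 ended without R271W replicate 1 (0.0635), and that of Atp1b2 in 6 of 17 alternatives. The call of Atp1b1 ended without the intensity trend (0.0729).

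Unc79 and Unc80 encode partners of NALCN, the sodium leak channel that depolarises pituitary cells at rest. Unc80 rose from 139 ± 30.4 to 203 ± 19.9 (log2 0.56, adjusted p = 0.0222) and Unc79 from 135 ± 5.61 to 199 ± 47.8 (log2 0.53, adjusted p = 0.0354). They passed in 11 and 7 of 17 alternatives. Nalcn itself was dim, at 23.5 ± 5.13 and 28.7 ± 6.48 (log2 0.29, adjusted p = 0.647). Unc79 and Unc80 were named, with Atp1b1 and Atp1b2, after their values were seen.

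Of 9 tested calcium pumps and exchangers 2 rose and 2 fell (44.4%). Of 9 tested store and release channel genes 1 rose and 1 fell (22.2%). Over all tested genes 18.9% passed, and no test of these lists against all genes was made. Atp2a2, the calcium pump of the endoplasmic reticulum, fell from 1285 ± 70.1 to 900.5 ± 21.1 (log2 -0.51, adjusted p = 0.000349), and a second probe set of it fell by 0.50. Of its 3 other probe sets, one gave -0.69 (adjusted p = 0.0746), and those with control means of 21.2 and 4.73 gave -0.10 and 0.64. The mean over all 5 did not pass (log2 -0.23, adjusted p = 0.508), and the mean over the 3 brighter ones did (log2 -0.57, adjusted p = 0.00127). Atp2b1, a calcium pump of the plasma membrane, fell by 0.38 (adjusted p = 0.00304). Atp2c1, a calcium pump of the Golgi, rose by 0.44 (adjusted p = 0.0168) on its chosen probe set. Saraf, which encodes a brake on store-operated calcium entry, fell by 0.53 on the log2 scale from 1491 ± 115 (adjusted p = 0.000476). Itpr1, an inositol trisphosphate receptor gene, rose by 0.49 (adjusted p = 0.0197). Itpr1 passed in 11 and Atp2c1 in 12 of 17 alternatives. Both calls ended with median centring (adjusted p = 0.141 and 0.181) and without the intensity trend (0.126 each). The call of Atp2b1 ended without the intensity trend (0.0859). Atp2b1, Atp2c1 and Itpr1 were named after their values were seen. Slc8b1, a mitochondrial sodium-calcium exchanger gene, rose from 30.7 ± 14.1 to 73.4 ± 12.4 (log2 1.34, adjusted p = 0.0084).

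Of 11 genes tested in the TRP channel list 1 rose (9.09%), and of 22 channel partners and regulators 2 fell (9.09%). Of 18 in a list of chloride channels and cotransporters 2 rose (11.1%). Over all tested genes 18.9% passed. These 2 were Ano6 and Slc12a7, a cotransporter gene. Slc12a7 passed in 5 of 17 alternatives and was named after its values were seen. Trpm7, a cation channel with a kinase domain, rose from 113 ± 13.6 to 181 ± 28.6 (log2 0.67, adjusted p = 0.0076), while its other probe set had a log2 fold change of 0.22 (adjusted p = 0.496). The calls of Slc8b1 and Trpm7 ended without the intensity trend (0.0755 and 0.0724). Ano6, of the anoctamin family, rose from 129 ± 7.51 to 219.5 ± 9.86 (log2 0.76, adjusted p = 0.000558). Cntn1, an adhesion molecule that associates with sodium channels, fell from 846 ± 87.6 to 523 ± 44.4 (log2 -0.69, adjusted p = 0.000313).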

How the data were processed

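The authors deposited linear intensity values, 1 MAS5 signal for each probe set; the submitters' processing notes name MAS5 and no version. The signals of every array average 100 once 2% are trimmed at each end, which ties dim signals to bright ones. Signals were converted to log2 and fitted with limma 3.58.1 in R 4.3.3 (lmFit with a term for group, then eBayes with trend, tested two-sided) on the 18625 non-control probe sets that reached the 40th percentile of mean log2 signal, which is a signal of 11.2, with Benjamini-Hochberg adjustment over all of them and a threshold of 0.05. Symbols were those of the platform's annotation, with Entrez IDs looked up in RefSeq (GRCr8); of 31042 probe sets 20826 had 1 symbol, 436 several and 9780 none. Promoters matched 79 of the 114 genes. Simulated data had 200 changed probe sets among 18625. There limma called 15 of 100 changes of 0.5 and 49 of 100 changes of 1 on the log2 scale, and 3 unchanged ones. The real fit called 2940 of 18625, far more, so these shares do not measure how often it missed a change.

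Members and lists were chosen with earlier results of these data known. Named were genes that passed, up to 4 expressed members per class, genes without overlap and a log2 difference of at least 1, and up to 4 other excitability genes in each direction. Alternatives were other scalings, filters, an offset of 3.72, no intensity trend, a replicate block, 1 probe set per gene, the mean over probe sets (all, or those above the receptor background, added after the data were seen), other limits of expression and leaving out each array. Figures used matplotlib 3.10.9 in Python 3.11.15.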

Additional observations from a re-analysis of the deposited data

How the results depend on the processing

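The 2 channel genes that rose, Kcna4 and Kcna5, were the ones called under every alternative tried. The 2 that fell were less stable by count: 1 fell without the filter, 1 with the mean over probe sets and 0 without the intensity trend (limma, 4 at an unadjusted p under 0.05), and 0 to 2 when single arrays were left out. With the replicate block 1 fell, and the block changed neither call that rose. Deviations of same-numbered arrays correlated at -0.00165, 0.0101 and -0.0201, and those of differently numbered arrays at -0.0207 to 0.0228. These values show no deviation shared by replicate number. They cannot show whether same-numbered arrays shared a culture or day, which the labels do not say. Of the other excitability genes, 5 rose with median centring and 3 without the intensity trend, 4 to 9 rose when single arrays were left out, and 4 fell without the intensity trend. Median centring moved the median log2 change of all genes from 0.06 to -0.14 and the share of calls that were higher from 52.4% to 17.6%. With limits of 25 and 100, 26 and 6 channel genes were expressed in controls. The mean over probe sets gave Kcnd3 a value of 0.37 and Atp2c1 one of -0.17, neither of which passed; it counts probe sets within the range of the receptor background. With the mean over probe sets above that range, added after the data were seen, Kcnd3 was at -0.10 without passing, Atp2c1 rose by 0.44, and the 2 channel genes called lower were Kcnk1 and Kcnj14. Where no value above shows it, the cause was not tested. Signals near the background limit what can be read of the 67 channel genes below the filter.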
